A study of Mus musculus with 18 samples.

Results

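The comparison described here is that of ovaries of newborn mice, at postnatal day 0 (P0), between Elavl2 knockouts (KO) and wild types (WT). It takes in 6 of the 18 arrays of the series, 3 of P0 KO and 3 of P0 WT, chosen by the stage and genotype in their labels. The other 12 arrays hold whole ovaries of both genotypes at E15.5 and E17.5, and the E17.5 arrays are used below as the stage before. Every sample is a whole female gonad sample, which the labels call mixed, and none is a purified cell type. The labels give neither strain, nor how the KO allele was made, nor whether a sample is 1 animal. The p-values thus measure only the spread between samples. Standard errors (SE) and p-values take that spread from all 18 arrays, those of E15.5 and E17.5 included, and not from the 6 P0 arrays alone. Each sample was hybridised to its own 1-colour 4x44K mouse array, and a value is the log2 signal of a gene's probe relative to the 75th percentile of that array, called its level below.

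Elavl2 belongs to the ELAV (Hu) family of RNA-binding proteins, which bind AU-rich stretches of mRNA and act on its stability and translation. In the mouse, oocytes leave mitosis, enter meiosis and arrest in its prophase before birth, and around birth the nests of germ cells break into primordial follicles, each a single oocyte inside a layer of pregranulosa cells. In the same days oocytes begin to make the proteins of the egg coat and to store the mRNAs and proteins that the early embryo will use. The genes named below are grouped by these roles.

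For the genes of the egg coat and the maternal stores, the proximal promoter is a known point of control: FIGLA, a basic helix-loop-helix factor of mouse oocytes, acts through an E-box in the promoters of the zona genes. The windows below hold the 250 bases before the annotated start, 5′ to 3′ on the coding strand, from RefSeq (GRCm38.p6). They are shown for 5 genes with large falls and for Stra8, a gene that rose, and capitals mark every CANNTG, which reads the same pattern on both strands.
Zp3, chr5:135979855-135980104, plus strand: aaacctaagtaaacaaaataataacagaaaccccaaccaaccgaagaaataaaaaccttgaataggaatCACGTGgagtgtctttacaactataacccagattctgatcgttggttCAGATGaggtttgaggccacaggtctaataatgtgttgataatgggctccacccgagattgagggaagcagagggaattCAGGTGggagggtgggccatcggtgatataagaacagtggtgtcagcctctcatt
Oosp1, chr19:11691052-11691301, minus strand: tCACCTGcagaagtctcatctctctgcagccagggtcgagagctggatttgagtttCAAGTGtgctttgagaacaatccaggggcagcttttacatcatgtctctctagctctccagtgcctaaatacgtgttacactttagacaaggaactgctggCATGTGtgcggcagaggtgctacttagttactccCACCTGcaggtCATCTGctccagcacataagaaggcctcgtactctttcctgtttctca
Zar1, chr5:72581085-72581334, minus strand: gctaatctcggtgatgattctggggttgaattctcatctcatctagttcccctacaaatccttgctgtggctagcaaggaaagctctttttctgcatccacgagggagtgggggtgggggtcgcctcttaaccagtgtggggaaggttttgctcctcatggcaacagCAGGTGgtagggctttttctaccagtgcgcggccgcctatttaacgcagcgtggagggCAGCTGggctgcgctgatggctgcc
Padi6, chr4:140742644-140742893, minus strand: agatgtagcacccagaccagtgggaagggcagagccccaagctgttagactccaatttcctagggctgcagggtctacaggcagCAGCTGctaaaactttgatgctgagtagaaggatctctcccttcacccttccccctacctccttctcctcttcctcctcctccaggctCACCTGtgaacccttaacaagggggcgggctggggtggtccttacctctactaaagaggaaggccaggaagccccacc
Bmp15, chrX:6320725-6320974, minus strand: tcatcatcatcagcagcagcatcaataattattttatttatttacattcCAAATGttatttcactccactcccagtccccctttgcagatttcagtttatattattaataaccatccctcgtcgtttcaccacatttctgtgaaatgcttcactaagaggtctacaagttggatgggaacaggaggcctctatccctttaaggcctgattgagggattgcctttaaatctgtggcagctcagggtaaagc
Stra8, chr6:34920698-34920947, plus strand: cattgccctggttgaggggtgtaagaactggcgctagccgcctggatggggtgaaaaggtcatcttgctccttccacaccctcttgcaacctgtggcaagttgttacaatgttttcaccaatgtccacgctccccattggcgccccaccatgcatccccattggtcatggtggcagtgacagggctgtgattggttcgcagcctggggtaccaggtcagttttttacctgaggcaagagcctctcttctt
Zp3 holds 3 copies, Oosp1 5, Zar1 2, Padi6 2, Bmp15 1 and Stra8 none in this window. CANNTG was present in 72.8% of 723 windows of genes called at least 2-fold lower in KO and in 66.1% of 227 windows of genes called at least 2-fold higher. It was present in 59.8% of the 16326 windows of all tested genes that matched by symbol, and in 66.2% of all 32851 mouse windows. CpG dinucleotides were fewer in the windows of the lower genes, with a median of 5, against 11 for the higher genes and 13 for all tested genes. These shares describe letters in a window, and they are not a test of any factor.

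Elavl2 itself was lower in KO ovaries. Its level was 3.31, 2.94 and 3.24 on the KO arrays, against 4.50, 4.59 and 4.48 on the WT arrays. The groups did not overlap, and the log2 change was -1.36 (SE 0.12, adjusted p = 9.09e-06). A second, dimmer probe gave -1.63. Since the sources used here do not say which part of the gene was deleted, a probe outside that part checks nothing, and these values are no check of the labels. Of its relatives, Elavl3 was lower (log2 change -0.70, SE 0.19, adjusted p = 0.0144), and it has 1 probe. The brightest probe of Elavl1 gave 0.32 (SE 0.10, adjusted p = 0.0218), but its other probes gave -0.38 and -0.03, so its direction is not settled. Elavl4 gave 0.41 (SE 0.14, adjusted p = 0.0365), and its dimmer probe 0.01.

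Across all genes the 2 groups stood clearly apart, and the largest differences were falls. Of 19299 genes tested, 3533 (18.3%) were called higher in KO and 3116 (16.1%) lower at an adjusted p under 0.05 (limma, Benjamini-Hochberg). Of these, 336 (1.74% of all genes) were higher by 2-fold or more and 884 (4.58%) lower by as much, and 40 were higher and 237 lower by 4-fold or more. Every KO array lay above every WT array for 4431 genes (23.0%) and below for 4877 (25.3%). The shares of 18.3% and 16.1% are the background for the counts of list members called higher and lower below. Arrays of the same genotype correlated at 0.991 to 0.992 across genes and arrays of different genotypes at 0.971 to 0.982.

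Part of the lean to large falls moved with signal strength. Fewer spots were well above background on the KO arrays (64.1% to 67.2%) than on the WT arrays (68.3% to 69.8%). Among the 3860 dimmest genes 108 were called higher and 518 lower by 2-fold or more, while among the 3860 brightest the counts were 17 and 12. With normexp background correction and quantile normalization, the dimmest genes held 6 such rises and 69 such falls. Scaling each array to its median shifts every log2 change up by 0.14 and takes the share of calls that are higher from 53.1% to 73.3%, so the direction of a change below that size depends on the scaling. The 3 WT arrays were on a slide of their own, KO 1 and KO 2 on another, and KO 3 on a slide it shared with E17.5 WT arrays. No slide held both genotypes at P0, so slide and genotype cannot be told apart there. With the slide as a random block, which does not part the 2, 3074 genes were called higher and 2701 lower.

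**Figure D1:**
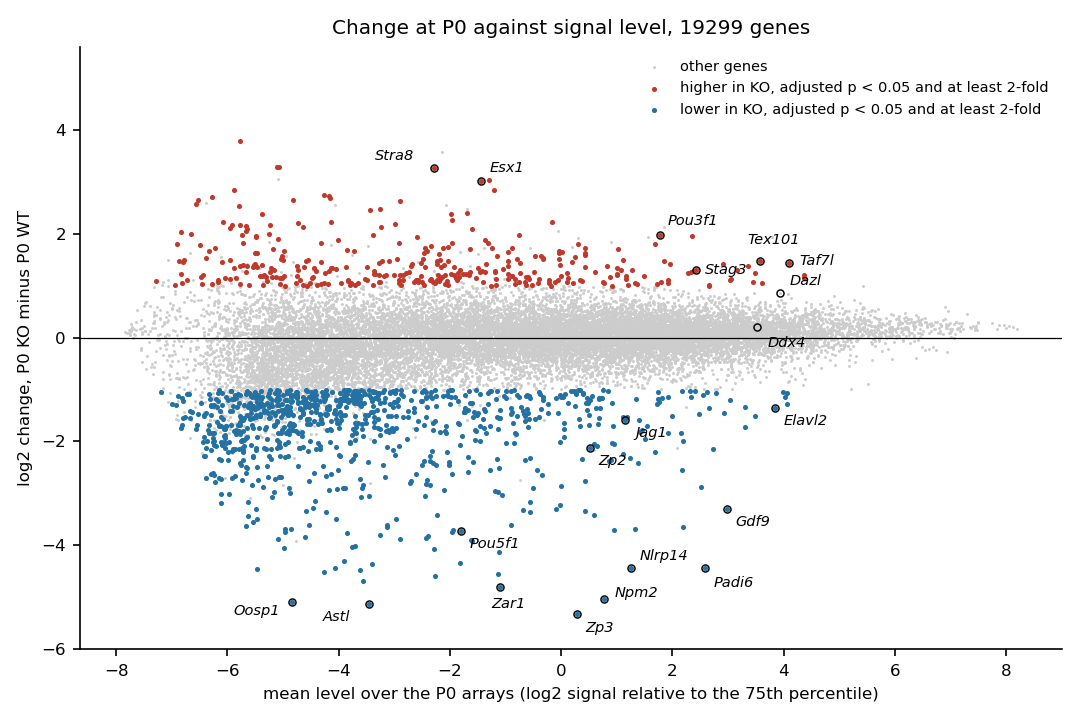
Each point is a gene, with its mean level over the 6 P0 arrays on the x axis and its log2 change, KO minus WT, on the y axis; red and blue points are called and changed at least 2-fold. Falls outnumber rises at low signal, and the egg coat and maternal genes (Zp3, Npm2, Nlrp14, Padi6) have large falls at moderate signal.

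Most transcripts that mark germ cells as such were not called in either direction. Of 28 measured genes of the germ cell list, 6 were called higher (18.3% of all genes were), 1 lower (16.1% of all genes) and 21 neither (median log2 change -0.16, against 0.00 over all genes). Ddx4, the germ cell RNA helicase, had 3.79, 3.39 and 3.71 on the KO arrays, against 3.37, 3.32 and 3.57 on the WT arrays. Its log2 change was 0.21 (SE 0.14, adjusted p = 0.252). Mael, a protein of the germ cell granule and piRNA pathway, gave 0.22 (SE 0.13, adjusted p = 0.203), and Tdrd1, of the same pathway, -0.21 (SE 0.29, adjusted p = 0.591). The groups overlapped for Ddx4, Mael and Tdrd1. Dppa3, a maternal protein also known as Stella, gave -0.38 (SE 0.41, adjusted p = 0.488), and Kit, the receptor for stem cell factor, -0.42 (SE 0.26, adjusted p = 0.24). These p-values leave room for changes of the size of their errors. The falls numbered 2 without KO 1, KO 3 or WT 3. The summed level of the list, on the linear scale relative to the 75th percentile, was 312 to 385 in KO and 349 to 355 in WT. In whole ovaries, fewer cells of a type and less RNA per cell cannot be told apart.

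The germ cell genes that rose included regulators of translation and surface proteins. Dazl, an RNA-binding protein that germ cells need for meiosis, had 4.49, 4.31 and 4.27 on the KO arrays, against 3.61, 3.27 and 3.61 on the WT arrays (log2 change 0.86, SE 0.13, adjusted p = 0.00035). Tex101, a glycoprotein of the germ cell surface, was at 4.37, 4.41 and 4.13 in KO and at 2.78, 2.54 and 3.16 in WT (1.48, SE 0.13, adjusted p = 5.83e-06). D1Pas1, a germ cell DEAD-box helicase related to Ddx3x, rose by 1.54 (SE 0.17, adjusted p = 4.4e-05), while a second probe for it gave 0.03. The only call downwards in the list was Pou5f1 (OCT4), a pluripotency factor that returns in growing oocytes. It had -4.26, -3.45 and -3.29 on the KO arrays, against -0.02, 0.00 and 0.21 on the WT arrays, a log2 change of -3.73 (SE 0.44, adjusted p = 6.12e-05).

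Figla, Nobox, Lhx8 and Sohlh2, transcription factors that begin the oocyte programme, were not called in either direction. Figla had 4.41, 3.79 and 3.99 on the KO arrays, against 4.01, 4.14 and 4.18 on the WT arrays, with a log2 change of -0.05 (SE 0.20, adjusted p = 0.874). Nobox, a homeobox factor needed for follicle formation, had 4.14, 3.59 and 3.98 in KO and 4.34, 4.34 and 4.39 in WT (-0.46, SE 0.37, adjusted p = 0.361). All 3 KO values of Nobox lay below the WT values, but the difference did not pass the test, whose spread is pooled over all 18 arrays. Lhx8, a LIM homeobox factor of the same stage, gave -0.19 (SE 0.39, adjusted p = 0.737) and Sohlh2, a basic helix-loop-helix factor, 0.20 (SE 0.15, adjusted p = 0.312). These p-values do not show that the levels were equal. Of the 14 measured genes of the list, 3 were higher (18.3% of all genes were), 2 lower (16.1%) and 9 not called. In a fit of the 6 P0 arrays alone 4 were lower.

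Of the list, 3 genes changed by 2-fold or more, and 2 of these encode parts of the basal transcription machinery. Tbpl2, the TBP-like factor that replaces TBP in growing mouse oocytes, had -5.45, -4.75 and -4.30 on the KO arrays, 1 of which was not well above background, against -1.11 to -0.77 on the 3 WT arrays. Its log2 change was -3.87 (SE 0.39, adjusted p = 2.07e-05). Taf7l, a germ cell form of a TFIID subunit encoded on the X chromosome, went the other way, with 5.01, 4.74 and 4.69 in KO and 3.39, 3.01 and 3.72 in WT (1.44, SE 0.18, adjusted p = 9.89e-05). The other, Lin28b, an RNA-binding protein that blocks let-7 maturation, rose by 1.34 (SE 0.24, adjusted p = 0.00129).

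The egg coat and cortical granule genes fell together. Of 12 listed genes 8 were measured, that is, well above background on all 3 arrays of some group, and 7 of the 8 were called lower (16.1% of all genes were) and 1 higher. A gene kept through the P0 WT arrays alone could hardly count as a rise, here and in the other lists. Over all genes, 503 were well above background on all 3 WT and no KO arrays at P0, and 35 the other way round. The median log2 change was -3.24. With normexp background correction and quantile normalization it was -1.81, and 7 were again lower, so the size depends on the processing. Zp3, a structural protein of the zona pellucida, had -2.93, -2.37 and -1.83 on the KO arrays, against 2.99, 3.04 and 2.79 on the WT arrays. Its log2 change of -5.32 (SE 0.42, adjusted p = 3.33e-06) was the largest fitted fall of any called gene, and its second probe gave -5.46. Genes at background in KO, whose fall is only bounded from below, cannot be ranked against it. Zp1, the zona protein that links the filaments, was at -4.38, -4.08 and -3.51 in KO and at 0.55, 0.41 and 0.10 in WT (-4.35, SE 0.39, adjusted p = 8.76e-06). Zp2, which egg proteases cut after fertilization, was at -0.73, -0.78 and -0.14 in KO and at 1.67, 1.70 and 1.39 in WT (-2.13, SE 0.58, adjusted p = 0.0133). The KO and WT arrays did not overlap for any of the 3 zona genes, and the smallest of the 3 falls was that of Zp2.

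For 2 further genes of this list the KO signal was at background, so their fold is a lower bound. Astl, the cortical granule protease ovastacin that cuts Zp2, had -6.37, -5.94 and -5.77 in KO, none well above background, against -0.91, -0.83 and -0.93 in WT. It was at least 23.9-fold lower (adjusted p = 6.24e-05). Oosp1, an oocyte-secreted protein, had -7.27, -7.29 and -7.61 in KO, against -2.15, -2.01 and -2.71 in WT, and was at least 9.06-fold lower (adjusted p = 1.23e-08). Such a bound takes, on each KO array, the higher of the lowest signal well above background and the probe's own signal. Izumo1r (JUNO), the sperm receptor on the egg membrane, changed by -1.52 (SE 0.28, adjusted p = 0.00139) and Cd9, a tetraspanin needed for fusion, by -0.66 (SE 0.11, adjusted p = 0.000504). The gene that rose, Ovgp1 (1.70, SE 0.19, adjusted p = 3.87e-05), encodes a glycoprotein that the oviduct, not the oocyte, secretes around eggs.

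The maternal-effect list fell as well. Of its 50 genes 35 were measured, and of these 23 were called lower, 21 of them at least 2-fold, 1 was higher and 11 were not called (median log2 change -2.10). The shares of all genes were 16.1% lower and 4.58% lower by at least 2-fold. With normexp background correction and quantile normalization 27 were lower and the median was -1.51. Npm2, a nucleoplasmin that packages oocyte chromatin, had -2.13, -1.82 and -1.31 on the KO arrays, against 3.21, 3.46 and 3.18 on the WT arrays (-5.04, SE 0.22, adjusted p = 8.68e-08). Zar1, which binds stored maternal mRNA, was at -3.50, -3.74 and -3.29 in KO and at 1.24, 1.53 and 1.11 in WT (-4.80, SE 0.36, adjusted p = 2.51e-06). All KO values of Npm2 and Zar1 lay more than 4 log2 units below the lowest WT value. Btg4, an adaptor of mRNA deadenylation in eggs, changed by -3.75 (SE 0.68, adjusted p = 0.00121) and H1f8, the oocyte linker histone, by -2.88 (SE 0.48, adjusted p = 0.000713). Oog1, of an oocyte leucine-rich repeat family whose members are alike in sequence, so that its probe may read several of them, changed by -3.93 (SE 0.70, adjusted p = 0.0011).

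Subunits of the subcortical maternal complex and of the cytoplasmic lattices fell by unequal amounts. Padi6, the lattice protein, had -0.23, 0.38 and 0.95 on the KO arrays, against 4.88, 4.96 and 4.58 on the WT arrays (-4.44, SE 0.54, adjusted p = 8.23e-05). Nlrp14 was at -1.67, -0.98 and -0.23 in KO and at 3.65, 3.62 and 3.18 in WT (-4.44, SE 0.67, adjusted p = 0.000366). Khdc3 (FILIA) changed by -3.71 (SE 0.52, adjusted p = 0.000207) and Ooep (FLOPED) by -2.14 (SE 0.46, adjusted p = 0.00338). The fall was smaller for Tle6, which had 4.96, 4.99 and 5.22 in KO and 5.88, 6.13 and 5.85 in WT (-0.90, SE 0.13, adjusted p = 0.000263). Nlrp5 (MATER) gave -1.69 (SE 0.48, adjusted p = 0.0168), and its call was lost without WT 2 (adjusted p = 0.0684) or without KO 3 (adjusted p = 0.0614). Of the enzymes in the list, the maintenance methyltransferase Dnmt1 changed by -0.51 (SE 0.11, adjusted p = 0.00293).

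Of the oocyte's secreted growth factors, the 2 with the best known roles fell. Gdf9, which drives the granulosa layer, had 1.20, 1.23 and 1.56 on the KO arrays, against 4.61, 4.71 and 4.57 on the WT arrays (-3.30, SE 0.27, adjusted p = 4.5e-06). Bmp15, its X-linked relative, was not well above background on any KO array (-7.62 to -5.96), against -2.79, -2.80 and -2.48 in WT, and was at least 6.87-fold lower (adjusted p = 0.00046). On the somatic side of the exchange Kitl, the KIT ligand of granulosa cells, rose by 0.48 (SE 0.12, adjusted p = 0.00983). Of the 18 listed ligands, receptors and inhibins, 3 were higher (18.3% of all genes were) and 6 lower (16.1%), and 1 was higher without KO 1.

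**Figure D2:**
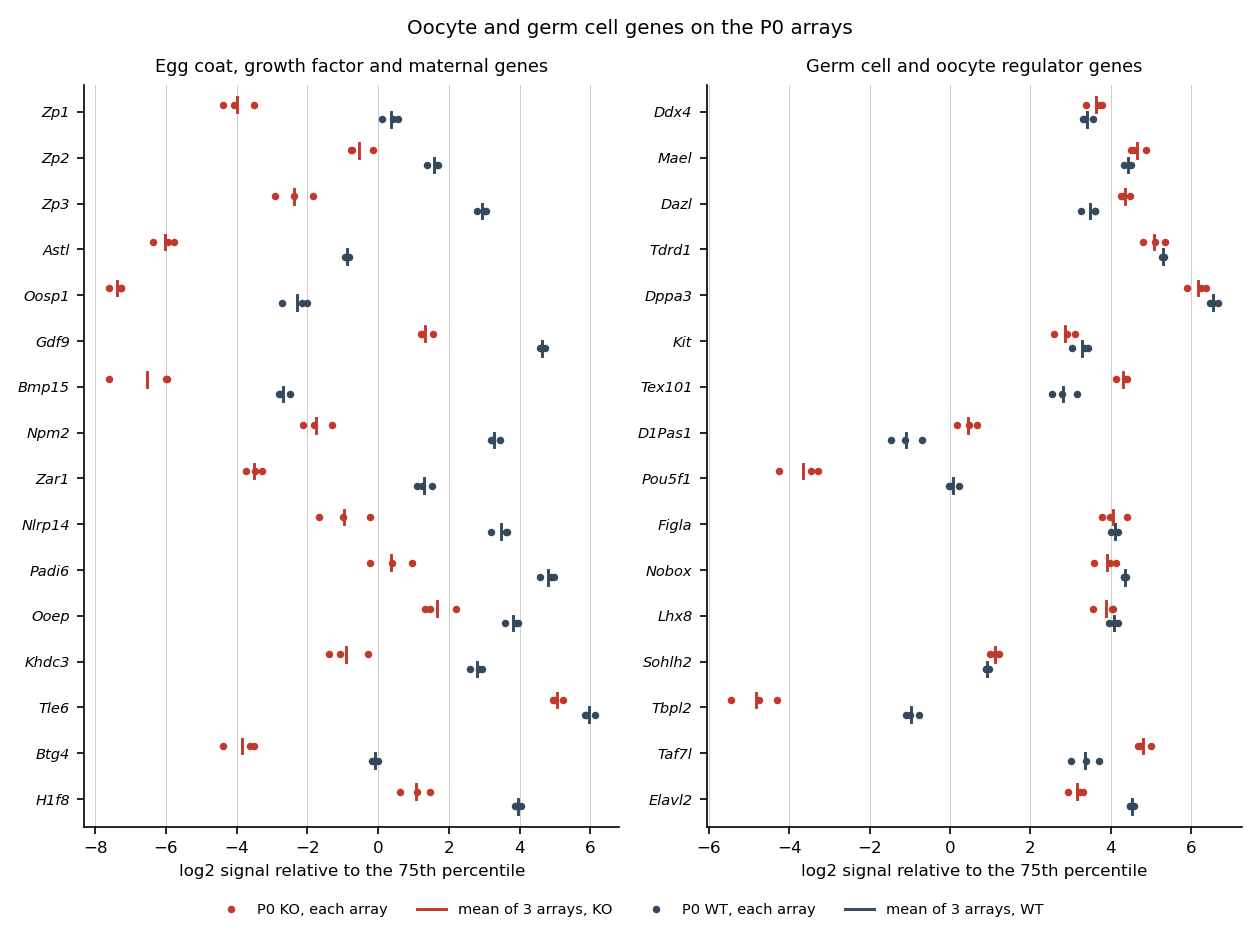
Each row is a gene, with red points for the 3 KO arrays above dark points for the 3 WT arrays, the x axis giving the log2 signal relative to the array's 75th percentile and short bars the means. In the left panel the KO and WT arrays do not overlap for any gene shown; in the right panel Ddx4, Mael, Tdrd1, Kit, Figla and Lhx8 overlap.

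The machinery that stores and silences mRNA changed less. Of 33 components of processing bodies, deadenylation and decapping, 3 were higher (18.3% of all genes were) and 4 lower (16.1%), with a median log2 change of 0.02. The count moved with the settings: 8 were higher and 1 lower with median scaling, 4 were higher and 7 lower with quantile normalization, and 1 was lower without KO 2 or without WT 2. The largest fall was that of Patl2, the oocyte form of the PAT1 repressor, with -4.07, -4.38 and -4.36 in KO and -2.70, -2.83 and -2.79 in WT (-1.50, SE 0.12, adjusted p = 4.28e-06). Ddx6, the helicase at the core of these bodies, had -0.84, -0.87 and -0.75 on the KO arrays, against 0.01, -0.42 and -0.65 on the WT arrays. Its log2 change of -0.47 (SE 0.15, adjusted p = 0.0316) was no longer called under 12 of 20 alternatives, among them leaving out WT 1 (-0.28, adjusted p = 0.137). Without KO 2 the rises numbered 5, and without WT 1 the falls 2. Dcp2, the decapping enzyme, was higher by 0.79 (SE 0.10, adjusted p = 7.95e-05), and a second, dimmer probe gave 0.01.

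Among 29 other regulators of germ cell translation, 9 were higher (18.3% of all genes were) and 5 lower (16.1%). Without KO 2 or without WT 1, 3 were lower. Cpeb3, which binds the cytoplasmic polyadenylation element, had -0.09, -0.29 and 0.16 in KO and 1.26, 1.17 and 0.93 in WT (-1.20, SE 0.15, adjusted p = 8.08e-05). Cpeb1, the family member that acts in mouse oocyte growth, gave -0.46 (SE 0.17, adjusted p = 0.0524). Fmr1, the fragile X protein that represses translation, rose by 0.63 (SE 0.11, adjusted p = 0.00114) on its brighter probe and gave 0.05 on the other. Of the KIT, PI3K and mTOR genes that set oocyte dormancy, 8 of 28 were higher (18.3% of all genes were) and 4 lower (16.1%). But 5 were higher and 8 lower with normexp, and 5 were higher without KO 3 or without WT 2. Pik3cd, a catalytic PI3K subunit, was at -0.06, -0.18 and -0.02 in KO and at 2.08, 2.07 and 1.76 in WT (-2.06, SE 0.13, adjusted p = 8.24e-07). Tsc1, a brake on mTOR, changed by -1.20 (SE 0.14, adjusted p = 7.5e-05), and of its 3 other probes 1 gave -1.28 and the others 0.12 and 0.15.

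Among the genes of meiosis, rises were most frequent in the list of the chromosome axis. Stra8, which licenses meiotic entry in answer to retinoic acid and is normally off by birth, had -1.41, -0.35 and -0.24 on the KO arrays, against -4.28, -3.71 and -3.80 on the WT arrays. It rose by 3.26 (SE 0.43, adjusted p = 0.000132), and the groups were far apart. Meioc, which stabilises meiotic transcripts and was picked after its value was seen, had 0.45, 0.35 and -0.11 in KO and -1.87, -2.31 and -1.09 in WT (1.98, SE 0.25, adjusted p = 9.92e-05). Of 18 genes of meiotic entry and retinoic acid, 5 were higher (18.3% of all genes were) and 1 lower (16.1%). The rises numbered 3 without WT 1 or without WT 2, and 1 in a fit of the 6 P0 arrays alone.

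Of 19 genes of the chromosome axis and synaptonemal complex, 10 were higher (background 18.3%), 3 lower and 6 not called, with a median log2 change of 0.35. Stag3, a meiotic cohesin subunit, was at 3.11, 3.01 and 3.13 in KO and at 1.84, 1.60 and 1.90 in WT (1.30, SE 0.12, adjusted p = 9.87e-06). Smc1b, its cohesin partner, had 6.15, 5.77 and 5.85 in KO and 4.94, 4.74 and 5.11 in WT (1.00, SE 0.14, adjusted p = 0.000228). The axis protein Sycp2 rose by 1.10 (SE 0.14, adjusted p = 9.92e-05), and its other 2 probes gave 1.37 and 0.77. Its partner Sycp3 had 3.93, 3.56 and 3.51 in KO and 3.91, 3.90 and 3.96 in WT, a change of -0.26 (SE 0.11, adjusted p = 0.0857). The falls included Sycp2l, an oocyte paralogue of Sycp2 (-1.81, SE 0.43, adjusted p = 0.0063), and Kash5, which ties telomeres to the cytoskeleton (-1.01, SE 0.10, adjusted p = 2.48e-05), whose other probe gave -0.37.

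Of 21 recombination genes, 6 were higher (18.3% of all genes were) and 3 lower (16.1%), with a median log2 change of 0.00. The falls numbered 5 without KO 1 and 1 without KO 3. Dmc1, the meiotic strand-exchange protein, had -2.94, -2.56 and -3.16 on the KO arrays, against -4.61, -4.98 and -4.08 on the WT arrays (1.67, SE 0.20, adjusted p = 7.95e-05). Tex11, an X-linked crossover factor, rose by 1.14 (SE 0.17, adjusted p = 0.00031) and Mei1 by 0.94 (SE 0.11, adjusted p = 6.7e-05). Mnd1, which works with DMC1, went the other way, with 2.01, 1.63 and 1.99 in KO and 2.74, 2.65 and 2.92 in WT (-0.89, SE 0.11, adjusted p = 8.67e-05). The recombination genes that were called went both ways.

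Genes of pluripotency went both ways. Of 19 primordial germ cell and pluripotency genes, 7 were lower (16.1% of all genes were) and 4 higher (18.3%), with a median of -0.38. With median scaling 6 were lower and 8 higher, and 2 were higher without WT 1 or without WT 2. Beside Pou5f1, the falls included Tfap2c (-2.91, SE 0.32, adjusted p = 3.77e-05), with 1 of 3 KO arrays well above background. Dppa5a, an RNA-binding protein of pluripotent cells, had 2.64, 2.47 and 3.06 in KO and 4.37, 4.27 and 4.08 in WT (-1.52, SE 0.23, adjusted p = 0.000343). Prdm1 (BLIMP1), which specifies germ cells, changed by -0.92 (SE 0.15, adjusted p = 0.000681). Klf4 went up by 1.25 (SE 0.26, adjusted p = 0.00299).

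Of 34 genes of the 2-cell and transposon-associated list 17 were measured, 13 of them called higher, 12 by 2-fold or more, and 2 lower (median 1.15). The matching shares of all genes were 18.3%, 1.74% and 16.1%. Listed genes that were not measured include Zscan4d, Zscan4f, Dux, Duxf3, Tcstv3 and Zfp352, so the count says nothing of these. Leaving out any 1 array left 0 or 1 of the falls. Of the 13 that rose, 8 are annotated on the X chromosome, among them homeobox and cancer/testis genes that germ cells also express. Esx1, an X-linked homeobox gene, had 0.30, 0.24 and -0.34 on the KO arrays, against -3.04, -3.28 and -2.56 on the WT arrays (3.03, SE 0.22, adjusted p = 1.93e-06). Tsga8, an X-linked germ cell gene, had 0.73, 0.77 and 1.32 in KO and -1.57, -1.36 and -0.92 in WT (2.23, SE 0.44, adjusted p = 0.002). The groups were at least 1 log2 unit apart for both genes. Xlr5a rose by 1.15 (SE 0.16, adjusted p = 0.000159), Magea5 by 1.47 (SE 0.26, adjusted p = 0.00116) and Usp17la, a deubiquitinase, by 2.10 (SE 0.36, adjusted p = 0.00092). These 3 belong to families of near-identical copies, and their probes may read several members.

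**Figure D3:**
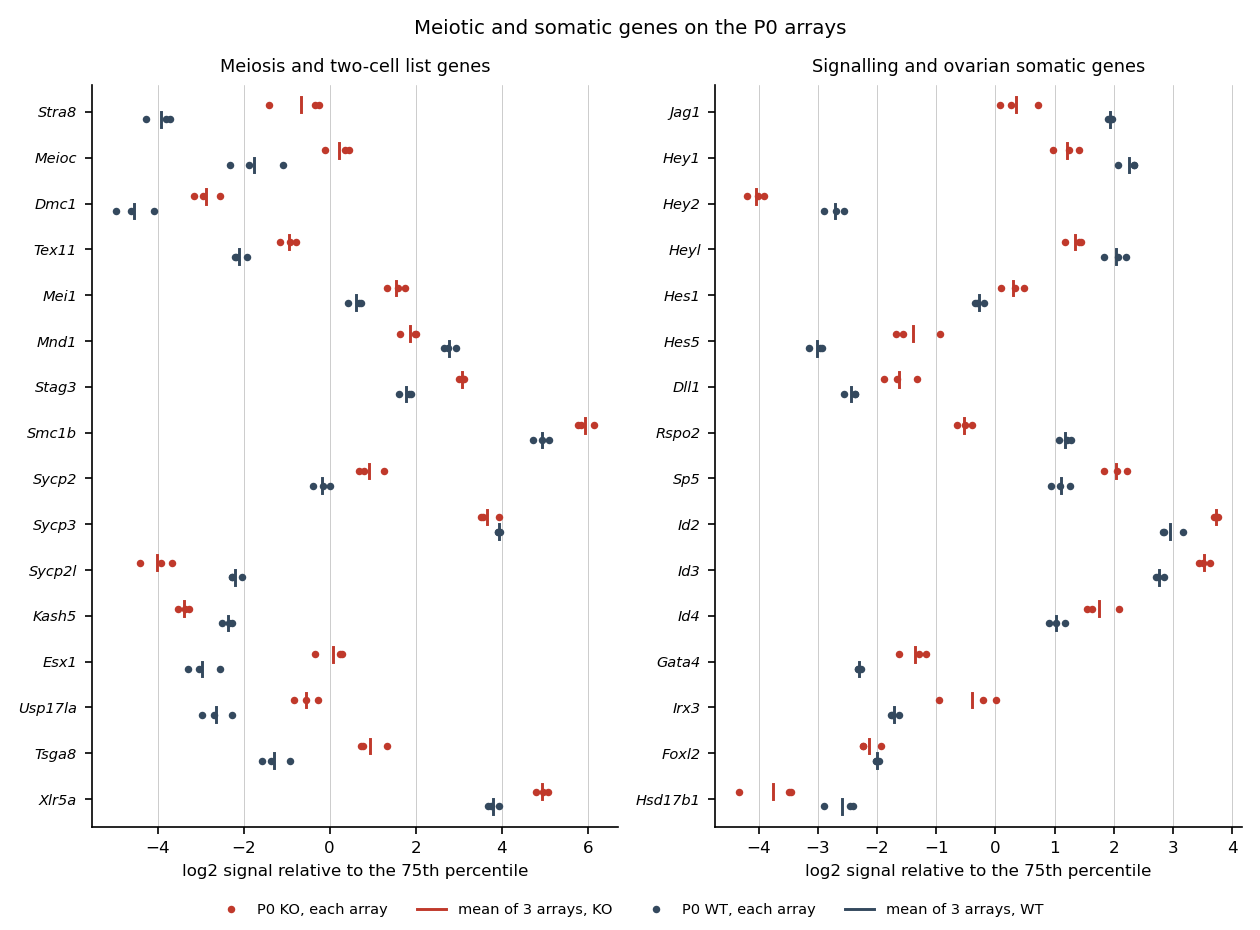
Each row is a gene, with red points for the 3 KO arrays above dark points for the 3 WT arrays, the x axis giving the log2 signal relative to the array's 75th percentile and short bars the means. The left panel shows Stra8, Stag3 and Esx1 higher and Mnd1, Sycp2l and Kash5 lower in KO; the right panel shows Jag1, Hey1, Hey2, Heyl and Rspo2 lower and Hes1, Hes5 and Dll1 higher in KO, with Foxl2 overlapping.

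Of the genes outside the lists that rose most, some encode transcription factors of other organs. Dlx1, a forebrain homeobox gene, rose by 2.41 (SE 0.27, adjusted p = 4.42e-05). Pou3f1 (OCT6), a POU factor of neural and male germline progenitors picked after its value was seen, had 2.97, 2.58 and 2.73 in KO and 0.75, 0.62 and 0.97 in WT (1.98, SE 0.16, adjusted p = 4.44e-06). Nkx2-4 gave 3.04 on its brighter probe and -0.54 on the other, so its probes disagree. Radx, an X-linked replication fork protein, had -2.23, -2.15 and -1.71 in KO and -4.53, -4.48 and -4.50 in WT (2.47, SE 0.19, adjusted p = 3.33e-06). The largest fitted rise was that of Olfr206, at background in WT and at least 3.28-fold higher (adjusted p = 0.00127).

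Of the genes outside the lists that fell most, Aspg, an asparaginase, had -3.63, -3.40 and -3.18 on the KO arrays, against 0.95, 1.34 and 1.13 on the WT arrays (-4.55, SE 0.21, adjusted p = 1.01e-07), while its dimmer probe gave -1.68. Slco4a1, an organic anion transporter, was at background in KO and at least 11.0-fold lower (adjusted p = 8.76e-06). Fam151a, on chromosome 4 within 20 Mb of Elavl2, changed by -4.37 (SE 0.26, adjusted p = 3.6e-07), with 1 of 3 KO arrays well above background. In that stretch of chromosome 4, 33 of 183 genes were higher and 45 lower (24.6%, against 16.1% of all genes).

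The ovarian somatic list leaned upwards. Of 27 measured genes of pregranulosa and ovarian somatic identity, 14 were called higher (18.3% of all genes were), 3 lower and 10 neither (median log2 change 0.42), and the summed level was 192 to 215 in KO and 155 to 176 in WT. Gata4, a gonadal zinc finger factor, was at -1.29, -1.18 and -1.62 in KO and at -2.32, -2.26 and -2.32 in WT (0.94, SE 0.14, adjusted p = 0.000379). Irx3, a homeobox gene of pregranulosa cells, rose by 1.32 (SE 0.28, adjusted p = 0.00297), Emx2, needed for gonad formation, by 0.70 (SE 0.11, adjusted p = 0.000566) and Nr0b1 (DAX1), an X-linked nuclear receptor, by 0.72 (SE 0.13, adjusted p = 0.00123). Foxl2, the factor that holds granulosa fate, had -2.23, -1.94 and -2.24 in KO and -2.02, -2.01 and -1.97 in WT, and Wnt4, the ovary-determining ligand, gave 0.21 (SE 0.11, adjusted p = 0.142). The change of Foxl2 was -0.13 (SE 0.11, adjusted p = 0.385). Of the 3 members that fell, Hsd17b1, an estradiol-forming enzyme, changed by -1.17 (SE 0.24, adjusted p = 0.00243) and the estrogen receptor Esr2 by -0.93 (SE 0.18, adjusted p = 0.00186), and the third, Inha, encodes the inhibin alpha subunit.

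Notch signalling passes between oocytes, which display JAG1, and pregranulosa cells. Jag1 had 0.72, 0.07 and 0.27 on the KO arrays, against 1.90, 1.97 and 1.95 on the WT arrays (-1.59, SE 0.17, adjusted p = 3.77e-05), and its other probe gave -0.71. The targets of the HEY class were lower as well. Hey1 was at 1.42, 0.97 and 1.24 in KO and at 2.35, 2.34 and 2.07 in WT (-1.04, SE 0.13, adjusted p = 7.57e-05), Hey2 changed by -1.32 (SE 0.16, adjusted p = 7.98e-05) and Heyl by -0.69 (SE 0.11, adjusted p = 0.000421). The targets of the HES class were higher, Hes5 by 1.62 (SE 0.18, adjusted p = 4.9e-05) and Hes1 by 0.58 (SE 0.12, adjusted p = 0.00241), and so was the ligand Dll1 (0.81, SE 0.14, adjusted p = 0.000848). Over the list, 7 of 20 genes were higher (18.3% of all genes were) and 5 lower (16.1%), and the median was 0.07.

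Of 34 Wnt genes, 11 were higher (18.3% of all genes were) and 1 lower (median 0.21), and with median scaling 18 were higher. The gene that fell, Rspo2, encodes an R-spondin made by oocytes. It had -0.40, -0.51 and -0.66 in KO and 1.20, 1.27 and 1.07 in WT (-1.71, SE 0.22, adjusted p = 0.000131). The ligand Wnt3, at background in WT, rose at least 2.55-fold (adjusted p = 5.11e-05). Of the usual target genes, Sp5 was at 2.21, 2.06 and 1.83 in KO and at 0.94, 1.09 and 1.27 in WT (0.94, SE 0.13, adjusted p = 0.000213). Axin2 gave 0.65 (SE 0.17, adjusted p = 0.011), and its call was lost without WT 1 (adjusted p = 0.0508).

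Of 26 genes of TGF-beta, BMP and activin signalling, 14 were higher (18.3% of all genes were) and 2 lower (median 0.26). In a fit of the 6 P0 arrays alone 9 were higher, and 1 was lower without KO 2, KO 3, WT 1 or WT 3. The inhibitors of differentiation, which BMP signals induce, rose alike. Id3 had 3.62, 3.51 and 3.45 on the KO arrays, against 2.85, 2.71 and 2.75 on the WT arrays (0.76, SE 0.09, adjusted p = 9.14e-05). Id2 rose by 0.77 (SE 0.09, adjusted p = 7.83e-05) and Id4 by 0.72 (SE 0.14, adjusted p = 0.00156), whose other probe gave 0.17. So did the inhibitory Smads, Smad6 by 0.48 (SE 0.09, adjusted p = 0.00145) and Smad7 by 0.63 (SE 0.12, adjusted p = 0.00149). Of 12 Hedgehog genes, 4 were higher (7 with median scaling) and 1 lower, and that fall was not called without KO 1, KO 3, WT 1 or WT 2.

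Of 39 genes of cell division and DNA replication, 10 were lower (16.1% of all genes were) and 4 higher (18.3%), with a median of -0.20. With scaling by the array median 5 were lower and 5 higher, so the lean depends on that choice. Tyms, thymidylate synthase, had 2.90, 2.74 and 2.89 in KO and 3.59, 3.71 and 3.61 in WT (-0.79, SE 0.15, adjusted p = 0.00185), and Aurkb, the mitotic kinase, changed by -0.74 (SE 0.18, adjusted p = 0.00657). The genes that rose were inhibitors of the cell cycle apart from a cyclin, Ccne2. Cdkn2a, on chromosome 4 within 20 Mb of Elavl2, was at -1.55, -1.84 and -1.60 in KO and at -3.39, -3.31 and -3.16 in WT (1.63, SE 0.33, adjusted p = 0.00246), and Cdkn1c (p57) rose by 0.67 (SE 0.14, adjusted p = 0.00247).

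Of 36 genes of p53, DNA damage and cell death, 5 were higher (18.3% of all genes were) and 2 lower (16.1%), with a median of 0.02. Without KO 2, 1 was lower. Pmaip1 (NOXA), a p53 target that promotes apoptosis, had 1.13, 0.66 and 1.01 on the KO arrays, against -0.53, -0.51 and -0.55 on the WT arrays (1.46, SE 0.14, adjusted p = 1.12e-05). Bcl2l10, an antiapoptotic BCL2 relative of oocytes, was at -1.75, -1.97 and -1.75 in KO and at 0.72, 0.51 and 0.36 in WT (-2.35, SE 0.45, adjusted p = 0.00184). Trp63, the p53 relative that guards oocytes, gave -0.98 (SE 0.38, adjusted p = 0.0591), with every KO value below every WT value. Of 20 genes of DNA methylation and chromatin, 6 were higher and 5 lower, while 8 were higher and 3 lower with median scaling and 2 were higher without WT 1 and 3 without KO 3 or WT 2, with 3 lower without KO 1, KO 2 or WT 1. Prmt5, an arginine methyltransferase, changed by -0.63 (SE 0.07, adjusted p = 4.74e-05).

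Cholesterol synthesis was lower in part, with 7 of 21 genes down (16.1% of all genes were) and 3 up (18.3%). With median scaling 5 were down and 4 up, and none was up without KO 1 or without WT 2. Fdft1, squalene synthase, had 1.37, 1.10 and 1.25 on the KO arrays, against 2.72, 2.73 and 2.80 on the WT arrays (-1.51, SE 0.10, adjusted p = 9.11e-07). Mvd changed by -0.78 (SE 0.10, adjusted p = 0.000134) and Fdps by -0.70 (SE 0.09, adjusted p = 0.000113), both enzymes upstream of it. Of 26 genes of glycolysis and hypoxia, 5 were higher and 1 lower (3 each with normexp). The rises numbered 1 without KO 1, 2 without KO 3 or without WT 3, and 0 without WT 2.

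Immediate early genes, which respond within minutes to handling of a tissue as well as to signals, were called higher for 10 of 22 (18.3% of all genes were) and not called for the other 12 (median 0.46). The count was 4 without KO 1, 5 without WT 2, 6 without WT 3 and 3 in a fit of the 6 P0 arrays alone. Atf3 was at -0.32, -0.85 and -1.17 in KO and at -1.38, -2.40 and -2.40 in WT (1.28, SE 0.26, adjusted p = 0.00266). Any effect of dissection on these values was not tested.

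Markers of the other cells in the sample did not move as 1 block. Of 17 endothelial genes, 10 were higher (18.3% of all genes were) and 7 not called (median 0.33). Their summed level was 32.5 to 35.2 in KO and 23.6 to 27.7 in WT. Among them Pecam1 (CD31) rose by 0.60 (SE 0.09, adjusted p = 0.000379) and Cdh5 (VE-cadherin) by 0.57 (SE 0.12, adjusted p = 0.00332). Surface epithelium genes were higher for 7 of 16 and lower for 1 (2 without WT 3), Cdh1 (E-cadherin; -0.83, SE 0.17, adjusted p = 0.00293), with a summed level of 91.7 to 98.0 in KO and 68.1 to 81.8 in WT. Lhx9, a LIM factor of that epithelium, had 2.40, 2.17 and 2.40 in KO and 1.41, 1.38 and 1.38 in WT (0.94, SE 0.14, adjusted p = 0.000256), and its other probe gave 0.16. Of 22 stroma, theca and steroid genes, 5 were higher and 1 lower, a share of rises near that of all genes, and the falls numbered 0 without KO 1 or without WT 1 and 2 without KO 2.

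Of 15 Sertoli and testis genes, 3 were higher and 5 lower (median -0.33), while 3 were higher and 3 lower with median scaling. The rises numbered 1 without KO 1, KO 2 or WT 2, and the falls 3 without KO 3, WT 1 or WT 2. Sox8 changed by -1.30 (SE 0.18, adjusted p = 0.000158), and its other probe gave -0.23. Of 20 macrophage and leukocyte genes, 3 were higher, 1 of them without WT 1, and their summed level, 27.7 to 64.2 in KO and 9.67 to 101 in WT, overlapped. None of 17 red cell genes was called by limma, 1 had an unadjusted p under 0.05, and their summed level was 203 to 238 in KO and 141 to 425 in WT. Of 11 fat and muscle genes, 2 were higher and 1 lower, and the rises numbered 1 without KO 1, KO 2 or WT 1 and 0 without WT 2.

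Tissue next to the ovary could add signal to a dissected gonad, and its markers gave the following. Of 14 mesonephros, oviduct and kidney genes, 2 were higher (1 without KO 3 or WT 2) and 3 lower (1 without KO 2, KO 3 or WT 2), with a summed level of 3.67 to 4.63 in KO and 3.22 to 3.45 in WT. Umod, a protein of the kidney tubule, was at background in KO and at least 4.02-fold lower (adjusted p = 0.0144), and its call was lost without WT 2 (adjusted p = 0.0544) or without KO 2 (adjusted p = 0.0527). Of 8 adrenal genes, 1 was higher and 2 lower, with a summed level of 0.908 to 1.03 in KO and 2.02 to 2.50 in WT. The falls were of Th, tyrosine hydroxylase, at -2.34, -2.66 and -1.97 in KO and 0.18, 0.04 and -0.19 in WT (-2.33, SE 0.54, adjusted p = 0.00577), and of Chga, chromogranin A (-1.53, SE 0.24, adjusted p = 0.000532). Insm1, a neuroendocrine zinc finger factor at background in WT, rose at least 4.37-fold (adjusted p = 7.26e-05). The adrenal cortex genes Cyp11b2 and Cyp21a1 were not well above background on all arrays of any group. Any effect of neighbouring tissue on the other results was not tested.

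**Figure D4:**
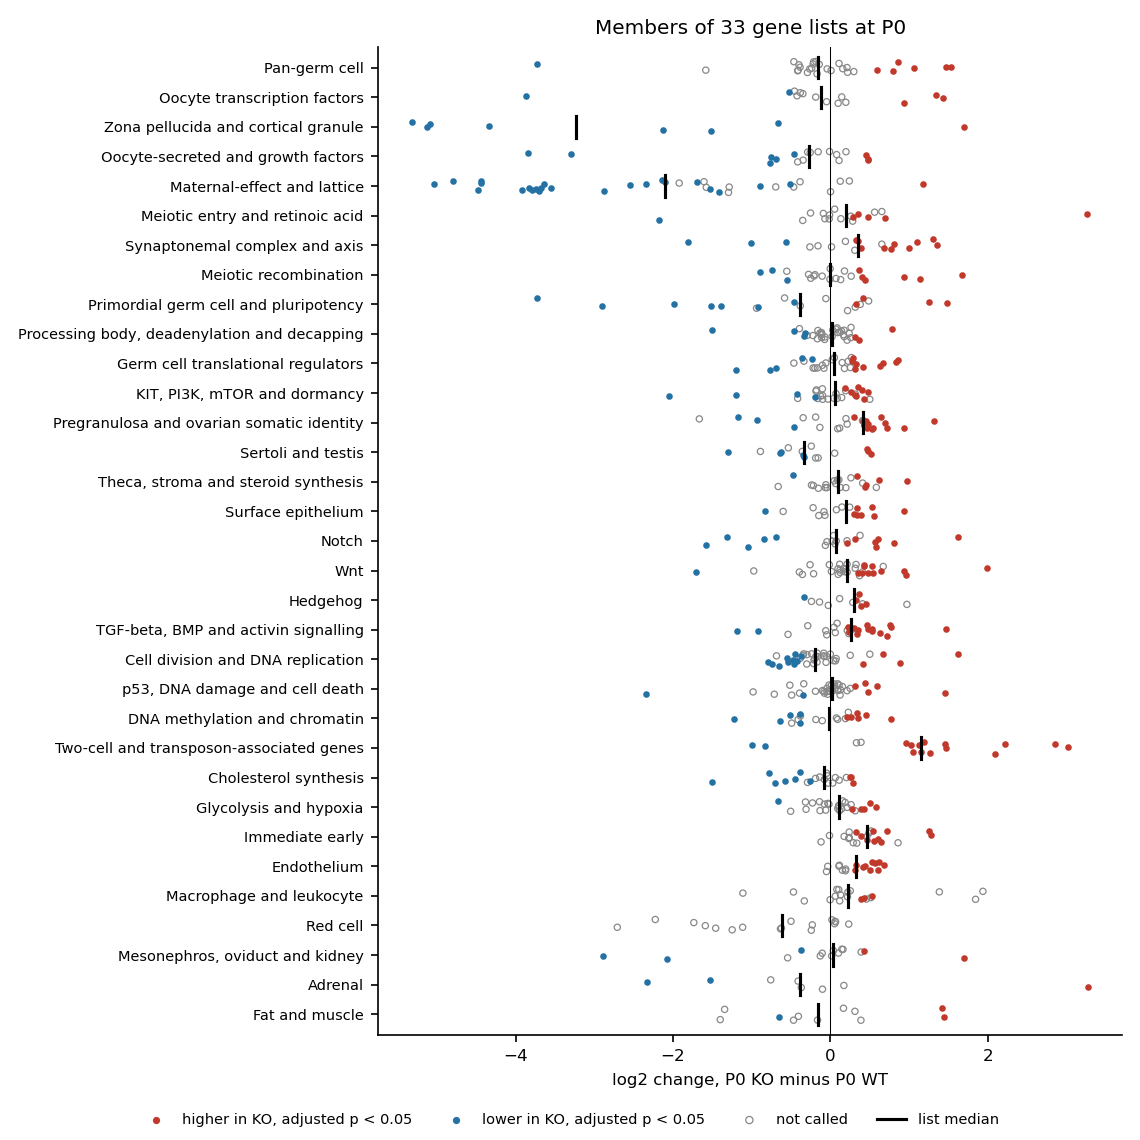
Each row is a gene list and each point a measured member, with the log2 change, KO minus WT, on the x axis; red and blue points are called higher and lower, open points are not called, and the black bar is the list median. The medians of the zona list (-3.24), the maternal-effect list (-2.10) and the 2-cell and transposon-associated list (1.15, 17 of 34 genes measured) lie farthest from 0. With normexp and quantile normalization, not drawn here, these medians were -1.81, -1.51 and 0.91.

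The change at P0 was set against that at E17.5, the stage before, by testing the difference of the 2 changes in the same fit. It differed for 2008 of 19299 genes (10.4%), 826 (4.28%) with a positive and 1182 (6.12%) with a negative difference. The comparison rests on E17.5 groups in which replicate 3 was scanned in another run. That run used another scanner model (G2505C) than the P0 arrays and E17.5 replicates 1 and 2 (G2600D). Without the run term 448 differences were positive and 583 negative. Leaving out 1 array gave 383 to 971 positive differences, with 383 without P0 WT 2 and 465 to 546 without E17.5 WT 1, WT 2 or WT 3 or E17.5 KO 2 or KO 3, and 665 to 1111 negative ones, with 665 without P0 WT 2 and 757 without E17.5 KO 2.

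The negative differences included egg coat and maternal genes, among them Zp3 and Npm2, whose levels in WT were far higher at P0. A difference in either direction was called for 5 of 8 measured zona list genes and 11 of 35 maternal-effect genes (10.4% of all genes). For Zp3 the difference of changes was -3.96 (adjusted p = 0.00216), and its WT mean was 2.94 at P0 and -2.64 at E17.5. Npm2 averaged -1.75 in KO and 3.28 in WT at P0, and -2.43 in KO and -1.21 in WT at E17.5 (-3.82, adjusted p = 2.9e-05). Zar1 gave -4.25 (adjusted p = 0.000568) and Tbpl2 -2.84 (adjusted p = 0.00808). The difference did not pass the test for Nlrp14 (-1.43, adjusted p = 0.354), Padi6 (-2.02, adjusted p = 0.11) or Oog1 (-1.14, adjusted p = 0.487). The KO mean of these 3 genes lay below the WT mean at E17.5 too, at -5.44 in KO and -2.42 in WT for Nlrp14.

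Jag1 and the Hey genes differed more at P0 than at E17.5. Jag1 averaged -0.29 in KO and -0.11 in WT at E17.5, and the difference of its changes was -1.40 (adjusted p = 0.00482). For Hey1 it was -1.03 (adjusted p = 0.00462), for Hey2 -1.49 (adjusted p = 0.0026) and for Heyl -0.82 (adjusted p = 0.00646). Rspo2, in contrast, averaged -2.07 in KO and -0.66 in WT at E17.5, and its difference of -0.30 did not pass the test (adjusted p = 0.571).

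Among the rises, Stag3 averaged 3.08 in KO and 1.78 in WT at P0, and 2.29 in KO and 2.13 in WT at E17.5 (1.15, adjusted p = 0.00199). Taf7l gave a difference of 1.56 (adjusted p = 0.00356), Dazl 1.00 (adjusted p = 0.0061), Dmc1 1.32 (adjusted p = 0.0141) and Id3 1.10 (adjusted p = 0.000577). The WT mean was lower at P0 than at E17.5 for Stag3, Taf7l, Dmc1 and Id3, and it was 3.50 at both stages for Dazl. Stra8 averaged -1.18 in KO and -3.25 in WT at E17.5, and its difference of 1.20 did not pass the test (adjusted p = 0.22).

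**Figure D5:**
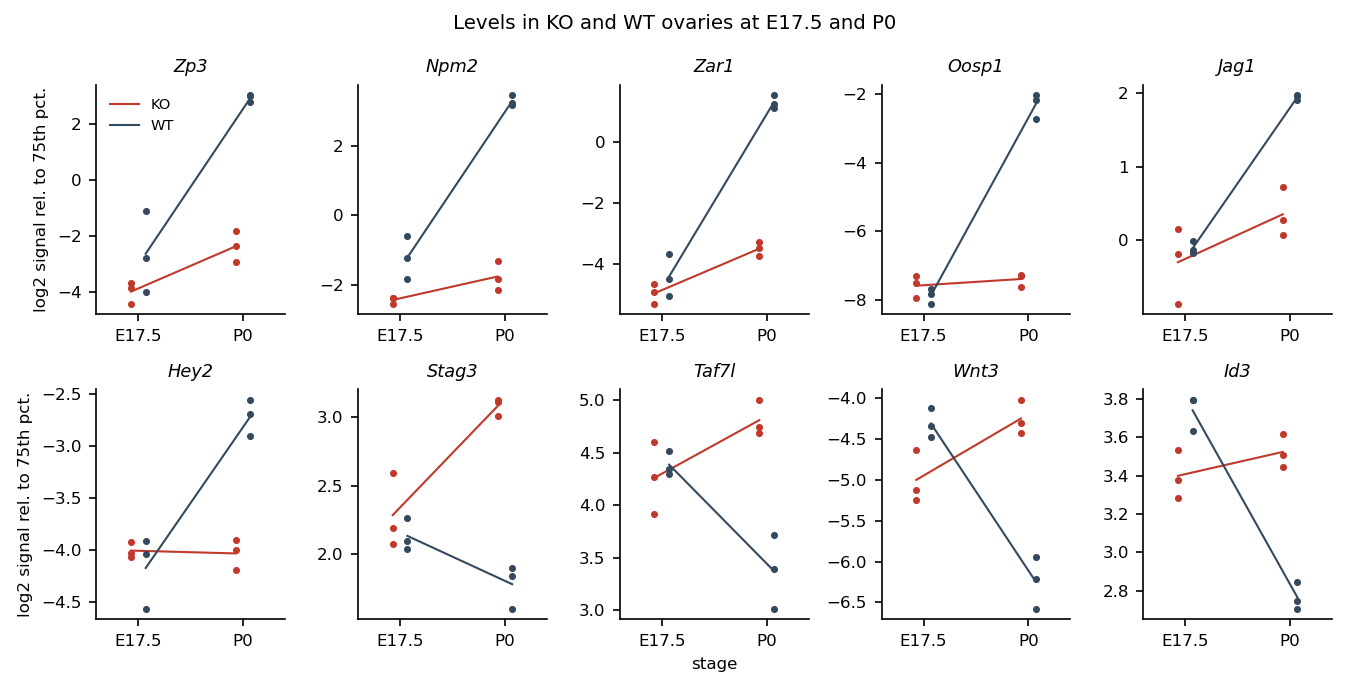
Each panel is a gene, with the stage on the x axis and the log2 signal relative to the 75th percentile on the y axis, whose range differs by panel; points are arrays and lines join the means of KO (red) and WT (dark). Zp3, Npm2, Zar1, Oosp1, Jag1 and Hey2 are higher at P0 than at E17.5 in WT by more than in KO, and Taf7l, Wnt3 and Id3 are lower at P0 than at E17.5 in WT but not in KO.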

How the data were processed

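Each whole-ovary RNA sample was hybridised to 1 Agilent 4x44K array (Cy3). Spot intensity values were background-subtracted by the authors' Feature Extraction run and deposited unnormalized between arrays. Its version is 10.7.3.1 per the file headers. The submitters' processing notes name 9.5. The authors' deposited matrix of log2 values differs from the log2 of these by 1 constant per array, and served as an alternative. Depth does not apply to arrays, and 3 arrays a group limit the precision.

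Here log2 intensity minus each array's 75th percentile was used, without control spots and outlier flags. Of 41174 probes, 29203 were kept (all 3 arrays of 1 or more of the 6 groups well above background), and the probe with the highest mean stood for a gene (19299 genes, of which 16318 had a RefSeq symbol). limma (3.58.1, R 4.3.3) fitted the 6 groups and the scan run over all 18 arrays, 11 residual degrees of freedom, with Benjamini-Hochberg adjustment over all genes and a threshold of 0.05. For 19 genes a P0 array was missing. The fit was tested on simulated data. Replicate numbers were not a block: same-numbered arrays deviated together by r = 0.149, 0.101 and 0.0808, not all above 0.1.

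Named genes were Elavl2, genes among the 20 largest rises and falls, the 8 largest differences from E17.5 each way, list members with a defining role or the smallest adjusted p, and others said to be picked after their values were seen. The members and lists were chosen with earlier results of these data known. Alternatives covered background, normalization, scaling, filter, run, probe choice, moderation, weights, slide, pairing, samples and threshold.

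Some results are not reported here.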

Additional observations from a re-analysis of the deposited data

Results flagged for a closer look

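The change at P0 differed from that at E17.5 for 2008 genes by the interaction term of the limma fit, and the 8 largest such differences each way are given here, as the fitted P0 change minus the E17.5 change on the log2 scale. Oosp1, Astl, Gtsf1l, Ifi207, 0610039H22Rik and Eya4 were not well above background on any P0 KO array, Wnt3 and Insm1 on any P0 WT array, Pax6 on any P0 WT array or on 2 of 3 P0 KO arrays, and Sox2 on any P0 array. For these genes the fitted value is not a measured size, and their order among the 16 has no meaning. The negative ones were Oosp1 at -5.38 (SE 0.26, adjusted p = 4.84e-07), Astl at -4.88 (adjusted p = 0.00481) and Gtsf1l at -4.87 (adjusted p = 0.0012). Ifi207, an interferon-inducible gene, gave -4.72 (adjusted p = 0.00182), 0610039H22Rik -4.70 (adjusted p = 0.0165), Khdc1a -4.58 (adjusted p = 0.00267), Eya4 -4.54 (adjusted p = 0.0217) and Zar1 -4.25 (adjusted p = 0.000568). The change of Eya4 at P0 itself was not called (adjusted p = 0.0906), and its difference was -1.17 (adjusted p = 0.117) with normexp and quantile normalization. For 0610039H22Rik the call was lost with array weights (adjusted p = 0.0585) and with the replicate block (adjusted p = 0.0643).

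The positive ones were Wnt3 at 2.69 (SE 0.32, adjusted p = 0.000568), Cbln2 at 2.40 (adjusted p = 0.0144) and Nkx2-4 at 2.39 (adjusted p = 0.00231). Pax6 gave 2.38 (adjusted p = 0.0127), Ankrd34b 2.36 (adjusted p = 0.00292), BC051019 2.19 (adjusted p = 0.00267), Sox2 2.12 (adjusted p = 0.017) and Insm1 2.04 (adjusted p = 0.0352). With the mean of a gene's probes the difference was no longer called for Cbln2 (adjusted p = 0.13), Pax6 (adjusted p = 0.134) and Nkx2-4 (adjusted p = 0.0639). With normexp it was no longer called for Sox2 (adjusted p = 0.104) and Pax6 (adjusted p = 0.0575). With array weights it was lost for Cbln2 (adjusted p = 0.0571) and Sox2 (adjusted p = 0.074), and with the replicate block for Sox2 (adjusted p = 0.0527) and Pax6 (adjusted p = 0.0547). For Insm1 it was lost under 11 alternatives (adjusted p = 0.0531 to 0.0895), and for Eya4 also with no run term (adjusted p = 0.063), array weights (adjusted p = 0.0563), the replicate block (adjusted p = 0.0911) and without P0 WT 2 (adjusted p = 0.0591).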

How the results depend on the processing

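The counts at P0 kept within 1.5 times of 3533 higher and 3116 lower under most settings. The exceptions were median scaling (1903 lower), a fit of the 6 P0 arrays alone (2150 higher), a threshold of 2-fold (336 higher, 884 lower) and one of adjusted p under 0.01 (1977 higher, 1761 lower). Leaving out 1 P0 array gave 2482 to 3619 higher and 2314 to 2752 lower. The share of calls that were higher was 53.1%, but 73.3% with median scaling and 41.1% with the 6 P0 arrays alone. With the replicate block 3039 were higher and 2652 lower; each array correlated best with its own number, a hint from the data and not from the design.

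The difference from E17.5 moved more: median scaling gave 1477 positive and 674 negative, no filter on dim probes 510 positive, no run term 448 and 583, array weights 376 and 666, and the replicate block 416 and 647. Leaving out 1 array gave 383 to 971 positive and 665 to 1111 negative.

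Of 115 called genes taken into this check, 110 were called in the same direction under all 20 alternatives, and none reversed. The other 5 (Nlrp5, Ddx6, Axin2, Umod and Gpr174) lost the call under at least 1, Gpr174 with no filter (adjusted p = 0.0521). The 115 were named by the size or adjusted p of their change in these same data, or by their role. Their stability was thus partly set by that choice, and it does not stand for all calls. Not every gene named above was taken in: Elavl1, whose probes gave both signs, is not among the 115. Figla, not called, was 0.0914 with median scaling and 0.0903 without KO 2, with a range of -0.22 to 0.09 over arrays left out, and Foxl2, not called, was 0.0064 with median scaling. The cause was not tested. At P0, genes at background on all 3 arrays of a group have only bounds.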

Other observations

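The following gene families were picked after their values were seen, and their counts are given as a description, beside 18.3% of all genes higher and 16.1% lower. Of 7 measured Oas1 genes, oligoadenylate synthetase copies of which several are known from mouse oocytes, 6 were lower in KO, all by 2-fold or more, with a median log2 change of -3.42. Of the 13 measured F-box genes from Fbxw11 up to Fbxw27, taken by number and not by place, 11 were lower (median -2.94). Of 15 hair and other keratins 11 were lower and 1 higher (median -2.63). Of 17 Mage genes, only some of them cancer/testis antigens, 11 were higher (median 1.21) and the other 6 not called. Of 32 Hox genes 11 were higher and 21 not called (median 0.26). Members of the Oas1, Fbxw and Mage families are alike in sequence, so a probe may read several of them. No count with normexp is given for these families or the keratins, though large falls among dim genes were fewer with it.

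Of 702 genes on the X chromosome 221 (31.5%) were called higher, against 17.6% of 18145 autosomal genes, and 71 (10.1%) lower, against 16.5%. Rises of 2-fold or more made up 8.26% of X genes and 1.46% of autosomal genes. Genes listed for olfactory receptors leaned the other way, 57 of 219 lower and 3 higher, with 50 of the falls at 2-fold or more. With normexp and quantile normalization 33 were lower and 4 higher, and 0 of the falls reached that size.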
